A study of Bos taurus with 6 samples.

Results

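The miR-26 family was examined in small RNA libraries of cultured bovine fat cells. Its members were the rows of known microRNAs (miRNAs) named bta-miR-26a, bta-miR-26b and bta-miR-26c, with or without an arm ending, which gave 3 rows of 771 known miRNA rows. The prefix bta- stands for cattle and is left out below. All 3 carry the family name mir-26 in the table, none carries an arm ending, and all 3 are typed there as hairpin. The libraries were 3 of adipocytes and 3 of preadipocytes from Holstein cattle, at passage 4 to 6 in both groups. Preadipocytes are cells committed to becoming fat cells. The protocol describes growth in serum-containing F12/DMEM and an induction with insulin, dexamethasone, rosiglitazone and IBMX, which turns such precursors into lipid-storing adipocytes. The same protocol text stands on all 6 libraries, and the sources used here do not give the length of induction. The labels name no animal or culture for a replicate, so the p-values cover the spread between these libraries, which may be technical.

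A miRNA pairs through its seed, the bases near its 5′ end, with messenger RNAs and lowers their translation and stability. The miR-26 genes lie in introns of the CTDSP genes, which encode small phosphatases of the RNA polymerase II tail, and miR-26a is made from a pair of genes. In mouse myoblasts miR-26a is described as repressing EZH2, a histone methyltransferase that keeps differentiation genes silent. In human adipocyte progenitors miR-26 is described as favouring differentiation and brown-like traits, while in mice it is described as restraining the formation of fat cells from progenitors.

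By RefSeq's genes on assembly ARS-UCD2.0, MIR26B lies within CTDSP1, MIR26A-2 within CTDSP2, and MIR26A-1 and MIR26C both lie within CTDSPL. MIR26C and MIR26A-1 have the same start and the same end there, and MIR26C is also listed under the name MIR3603. No other miRNA gene lies within 10 kb of any of the 4 genes except these overlapping ones. The gene table holds no strand, and no source used here gives the strand setting of the counting, so reads of miR-26a and miR-26c from that shared locus cannot be told apart with certainty. The single levels of miR-26a and miR-26c are therefore uncertain, and their sum is given beside them. The table's genome build is not stated for these rows, so the RefSeq table was used for names and overlap only.

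The libraries held 14525284 to 22283754 reads in rows of known and predicted miRNAs, and each member had at least 4913 reads in every library. One library stood apart from its group: on the first principal component of miRNA levels, which held 41.6% of the variance, preadipocyte replicate 3 scored 3.37, against 19.8 and 23.6 in preadipocyte replicates 1 and 2 and -17.7 to -14.1 in adipocytes. Reads assigned to exons, introns, repeats and intergenic sequence took 5.29% of its table, against 18.5% and 18.9% in the other preadipocyte libraries and 8.21% to 12.0% in the adipocyte libraries. Adipocytes have no miRNA of their own that would check that label. Markers of mesenchymal cells (7 of 7 listed names in the table) summed to 704824 to 788442 reads-per-million of miRNA reads in adipocytes and 814695 to 838796 in preadipocytes, most of them miR-21-5p. The 6 blood cell markers summed to at most 1.60 reads-per-million of miRNA reads in adipocytes and 4.20 in preadipocytes. The endothelial miR-126 stood at 44.9 to 91.1 in adipocytes and 95.4 to 334 in preadipocytes, and the 4 skeletal muscle markers at 21.1 to 34.6 in adipocytes and 17.8 to 38.8 in preadipocytes. The liver's miR-122 reached at most 0.138 in any library. Of 3 neuronal names 1 had a row, at 4.29 to 7.52 in adipocytes and 5.03 to 7.40 in preadipocytes, and of 7 epithelial names 5 had rows, with a sum of at most 0.993 in adipocytes and 0.895 in preadipocytes. The part of these other cell types in the results below was not tested.

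The comparison of the study was that of adipocytes with preadipocytes. The labels do not say whether these adipocytes formed from the same preadipocyte cultures. All 3 miR-26 members were abundant miRNAs in both states. As counted, miR-26c was the most abundant of them in adipocytes. Its reads and those of miR-26a cannot be told apart with certainty, as MIR26C and MIR26A-1 share a locus. Every adipocyte library held more miR-26b and more miR-26c than every preadipocyte library. Of all 414 tested miRNA rows, 24.2% also lay wholly higher in adipocytes. The levels of miR-26a overlapped between the groups. Neither miR-26b nor miR-26c passed the test over all miRNAs once p-values were adjusted, and in bulk RNA a change in each cell cannot be told apart from a change in the make-up of the culture. Levels are given below as CPM, the counts-per-million of miRNA reads after scaling with edgeR's TMM factors. Differences are log2 of adipocytes over preadipocytes.

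In adipocyte replicates 1 to 3, bta-miR-26c was counted 34503, 43955 and 40305 times, against 7846, 4913 and 22990 times in preadipocyte replicates 1 to 3. On the scaled level this gave 1710.3, 2081 and 2061 CPM in adipocytes and 536, 400.2 and 1405 CPM in preadipocytes. The groups did not overlap, and preadipocyte replicate 3 lay far closer to the adipocyte libraries than the other preadipocyte libraries did, at 3.00 times their mean. Means were 1951 ± 208 CPM in adipocytes and 780.4 ± 545 CPM in preadipocytes (SD, n = 3 each), which differed by 1.32 on the log2 scale (SE 0.49) and missed the threshold in edgeR's quasi-likelihood test (Benjamini-Hochberg (BH) adjusted p = 0.111). That is a 2.50-fold difference with a 95% interval of 1.11 to 5.64. Without preadipocyte replicate 3 the log2 difference was 2.06 (edgeR BH-adjusted p = 0.00923). In that fit 31.8% of 465 tested miRNAs passed the threshold. Leaving out any other library instead did not bring miR-26c past it, with edgeR BH-adjusted p of up to 0.246.

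The CTDSP1-hosted bta-miR-26b was counted 20708, 21791 and 20552 times in adipocyte replicates 1 to 3, against 5690, 5856 and 11994 times in preadipocyte replicates 1 to 3. Scaled, these were 1026, 1032 and 1051 CPM in adipocytes and 389, 477 and 733 CPM in preadipocytes. On this scale the adipocyte libraries were nearly equal to each other, and preadipocyte replicate 3 was again the highest of its group. The near equality came with the scaling. Without it, miR-26b had 1377, 1442 and 1075 reads-per-million of miRNA reads in adipocyte replicates 1 to 3. In preadipocyte replicates 1 to 3 it had 326, 403 and 538. Means were 1036 ± 12.9 CPM in adipocytes and 533 ± 179 CPM in preadipocytes (SD, n = 3 each), which differed by 0.96 on the log2 scale with an SE of 0.29 (edgeR BH-adjusted p = 0.0788). The fold was 1.94 with a 95% interval of 1.19 to 3.17. The log2 difference was 1.25 without preadipocyte replicate 3 and passed there (edgeR BH-adjusted p = 0.0204), in the fit with 31.8% of all miRNAs past the threshold. It did not pass with any other library left out (edgeR BH-adjusted p of up to 0.235).

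The reads of bta-miR-26a numbered 30778, 18974 and 29549 for adipocyte replicates 1 to 3, against 21453, 20070 and 19335 for preadipocyte replicates 1 to 3. Scaled, these were 1526, 898 and 1511 CPM in adipocytes and 1466, 1635 and 1181 CPM in preadipocytes. On this scale adipocyte replicate 2 was the lowest of all 6 libraries and preadipocyte replicate 2 the highest. In unscaled reads-per-million of miRNA reads, preadipocyte replicate 3 was the lowest (868) and adipocyte replicate 1 the highest (2047). Means were 1312 ± 358 CPM in adipocytes and 1427.5 ± 229 CPM in preadipocytes (SD, n = 3 each), which differed by -0.12 on the log2 scale with an SE of 0.29 (edgeR BH-adjusted p = 0.767). The 95% interval of the fold ran from 0.568 to 1.49, on both sides of 1. The sign of this difference depended on the scaling and on single libraries: it was 0.48 with library totals alone and 0.091 without adipocyte replicate 2.

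**Figure D1:**
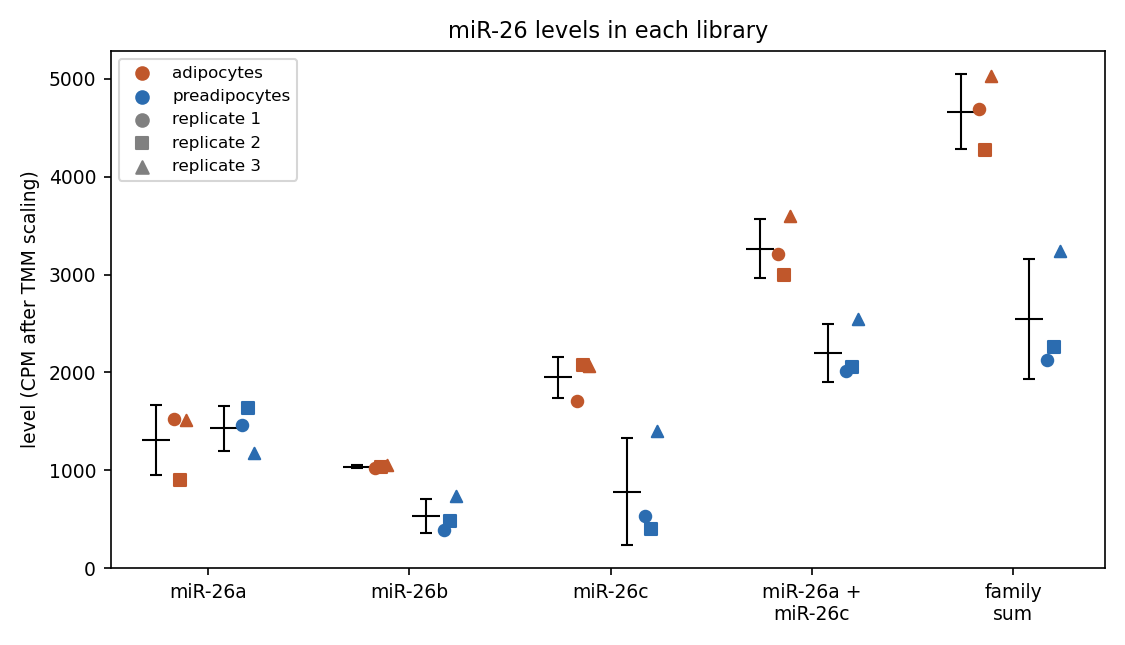
Levels of each miR-26 row, of miR-26a and miR-26c added together, and of the family sum (vertical axis, CPM after TMM scaling, linear from 0). Each of these sums comes from its own fit with its own TMM factors, so its CPM are not the members' CPM added up. Points are single libraries, marked by replicate, and black bars are the mean ± SD of 3 libraries. The adipocyte points of miR-26b (1026 to 1051 CPM) and miR-26c (1710.3 to 2081 CPM) all lie above the preadipocyte points, of which replicate 3 is the highest, and the points of miR-26a overlap.

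Read against all miRNAs, 0 of the 3 members passed an edgeR BH-adjusted p of 0.05, where 6.28% of the 414 tested rows did (26 rows, 16 higher and 10 lower in adipocytes). Without adjustment, miR-26b and miR-26c were below a p of 0.05 in that edgeR test, as were 34.1% of all tested rows. With DESeq2 on the same rows miR-26b passed (log2 difference 0.93, DESeq2 BH-adjusted p = 0.0283) and miR-26c did not (1.31, DESeq2 BH-adjusted p = 0.0513), and 23.4% of all rows passed. Adipocytes lay wholly above preadipocytes for 2 of the 3 members and for 24.2% of all tested rows. Ordered from the most positive log2 difference down, miR-26c was row 61, miR-26b row 91 and miR-26a row 217 of 414. The members' median log2 difference was 0.96, against -0.02 over all tested rows.

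The scaling sets where zero lies for all rows, since miR-21-5p alone took 64.0% to 74.1% of the miRNA reads in adipocytes and 77.9% to 80.2% in preadipocytes. With library totals alone the median of all rows moved to 0.62 on the log2 scale, and with upper-quartile factors to -0.31. The balance of calls moved along, at 88 higher and 9 lower with library totals and 15 higher and 34 lower with upper-quartile factors. A change of scaling shifts nearly all rows alike, so the members' excess over the median of all rows is nearly fixed by construction and is given as a description only. The excess over that median was 1.34 for miR-26c with TMM factors, 1.36 with upper-quartile factors and 1.39 with library totals. For miR-26b it was 0.98, 0.98 and 1.00 in the same order, and for miR-26a -0.10, -0.090 and -0.14.

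**Figure D2:**
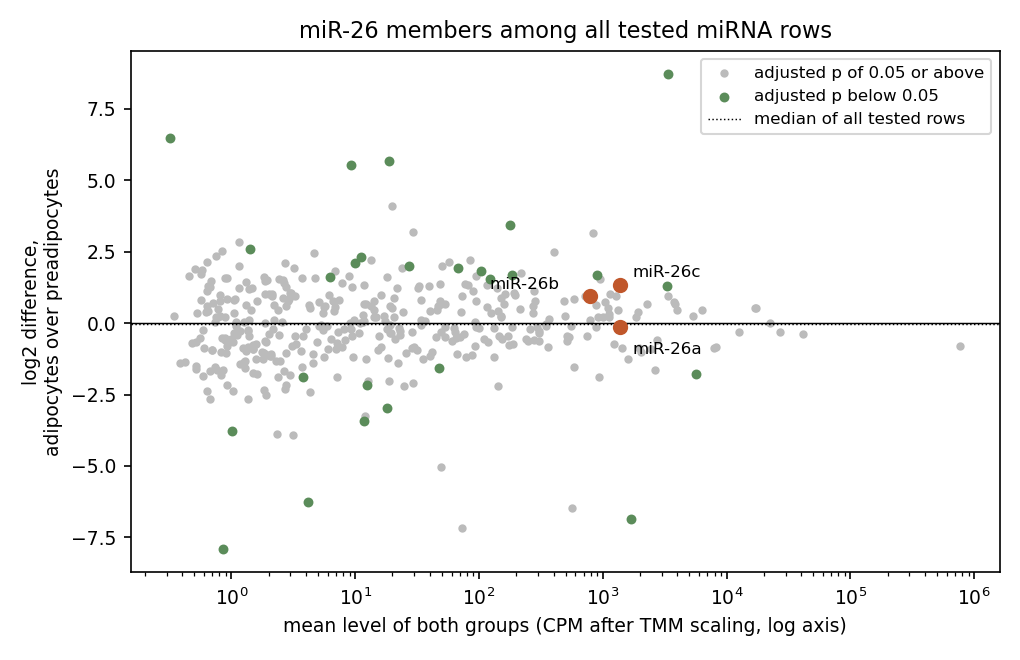
Each point is 1 of 414 tested miRNA rows, by mean level over both groups (horizontal, CPM on a log axis) and log2 difference of adipocytes over preadipocytes (vertical). Green points passed an adjusted p of 0.05, orange points are the 3 members, and the dotted line is the median of all rows (-0.02). The members sit at high levels, miR-26c and miR-26b above zero and miR-26a near it, among many grey points of like difference.

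Because the members carry the same family name and miR-26a and miR-26c share a locus, their reads were also added together. No mature sequences were at hand, so whether miR-26c carries the seed of miR-26a and miR-26b was not tested. The family took 0.572%, 0.561% and 0.473% of the miRNA reads in adipocyte replicates 1 to 3 and 0.201%, 0.212% and 0.244% in preadipocyte replicates 1 to 3. Every adipocyte library lay above every preadipocyte library. The difference of the means, 0.316 percentage points, had an exact two-sided permutation p of 0.1, below which a design of 3 against 3 cannot go. With library totals alone the median log2 difference of all 414 tested rows was itself 0.62, with 88 calls higher and 9 lower in adipocytes. How many of all rows separate the groups in such shares was not counted. With the miR-21 arms left out of the total the family's share was 1.59%, 1.68% and 1.82% in adipocytes and 0.910%, 1.00% and 1.23% in preadipocytes, again without overlap (exact permutation p = 0.1).

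In a fit with every family summed, the miR-26 family had 4696, 4268 and 5029.6 CPM in adipocytes and 2132, 2260.1 and 3245 CPM in preadipocytes. That fit had its own TMM factors, so its CPM are not the sums of the members' CPM, and part of the difference below comes with that rescaling. The means were 4664 ± 382 CPM in adipocytes and 2545 ± 609 CPM in preadipocytes (SD, n = 3 each), which differed by 0.87 on the log2 scale with an SE of 0.23 (edgeR BH-adjusted p = 0.0651). It missed the threshold, which 7.56% of 291 family sums and single rows passed. Adipocytes lay wholly above preadipocytes for the miR-26 sum and for 22.3% of these 291 rows. The sum passed without preadipocyte replicate 3 (1.02, edgeR BH-adjusted p = 0.0329), where 28% of such rows passed, and with DESeq2 (0.84, DESeq2 BH-adjusted p = 0.0100), where 26.1% did. It also passed with known miRNAs only (0.91, edgeR BH-adjusted p = 0.0378), where 14% of 242 rows did. Of 18 alternatives the family sum passed in 5. Its highest edgeR BH-adjusted p among them was 0.169, with no low-count filter.

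The sum of miR-26a and miR-26c, a choice made after the shared locus was seen, had a smaller relative spread than either row in both groups. In a fit with its own TMM factors it had 3209.8, 2994 and 3595 CPM in adipocytes and 2012, 2052 and 2544 CPM in preadipocytes. Its SD was 9.33% of the mean in adipocytes and 13.4% in preadipocytes, where that of miR-26c alone was 10.7% in adipocytes and 69.8% in preadipocytes. That of miR-26a alone was 27.3% in adipocytes and 16.1% in preadipocytes. Means were 3266 ± 305 CPM in adipocytes and 2203 ± 296 CPM in preadipocytes (SD, n = 3 each), which differed by 0.57 on the log2 scale with an SE of 0.21 (edgeR BH-adjusted p = 0.104). In this fit 6.3% of 413 rows passed. Without preadipocyte replicate 3 this log2 difference was 0.69 (edgeR BH-adjusted p = 0.0472), where 33.4% of all rows passed. With upper-quartile factors the log2 difference was 0.30 and with library totals alone 1.20.

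The division of the family's reads among its 3 rows differed between libraries. Between miR-26a and miR-26c this division is uncertain, because of their shared locus. In adipocyte replicates 1 to 3, miR-26c took 40.1%, 51.9% and 44.6% of the family's reads, and in preadipocyte replicates 1 to 3 it took 22.4%, 15.9% and 42.3%. The share of miR-26a was 35.8%, 22.4% and 32.7% in adipocytes and 61.3%, 65.1% and 35.6% in preadipocytes. Preadipocyte replicates 1 and 2 were dominated by miR-26a, and preadipocyte replicate 3 had a division like that of adipocytes, so the groups overlapped for both rows. The share of miR-26b moved least, at 24.1%, 25.7% and 22.7% in adipocytes and 16.3%, 19.0% and 22.1% in preadipocytes. It did not overlap, though its lowest adipocyte share, 22.7%, lay close to its highest preadipocyte share, 22.1%. How often the shares of other families' rows separate like this was not counted. Exact two-sided permutation p-values were 0.2 for miR-26a, 0.1 for miR-26b and 0.2 for miR-26c, and 0.2 for each after BH adjustment over the 3 shares.

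Set against each other, miR-26c had 1.12, 2.32 and 1.36 reads per miR-26a read in adipocyte replicates 1 to 3 and 0.366, 0.245 and 1.19 in preadipocyte replicates 1 to 3 (exact permutation p = 0.2). The reads of miR-26b per miR-26a read were 0.673, 1.15 and 0.696 in adipocytes and 0.265, 0.292 and 0.620 in preadipocytes. These did not overlap (exact permutation p = 0.1), and overlap of such ratios in other families was not counted. In a limma fit of each miRNA's log2 ratio to the rest of its own family, over 192 miRNAs of all families, the difference between the groups was -1.46 (SE 0.56) for miR-26a, 0.44 (SE 0.26) for miR-26b and 1.28 (SE 0.55) for miR-26c. Their limma BH-adjusted p-values were 0.209, 0.417 and 0.252, so that 0 of the 3 passed, where 2.6% of the 192 did. These ratios do not depend on the scaling of libraries.

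**Figure D3:**
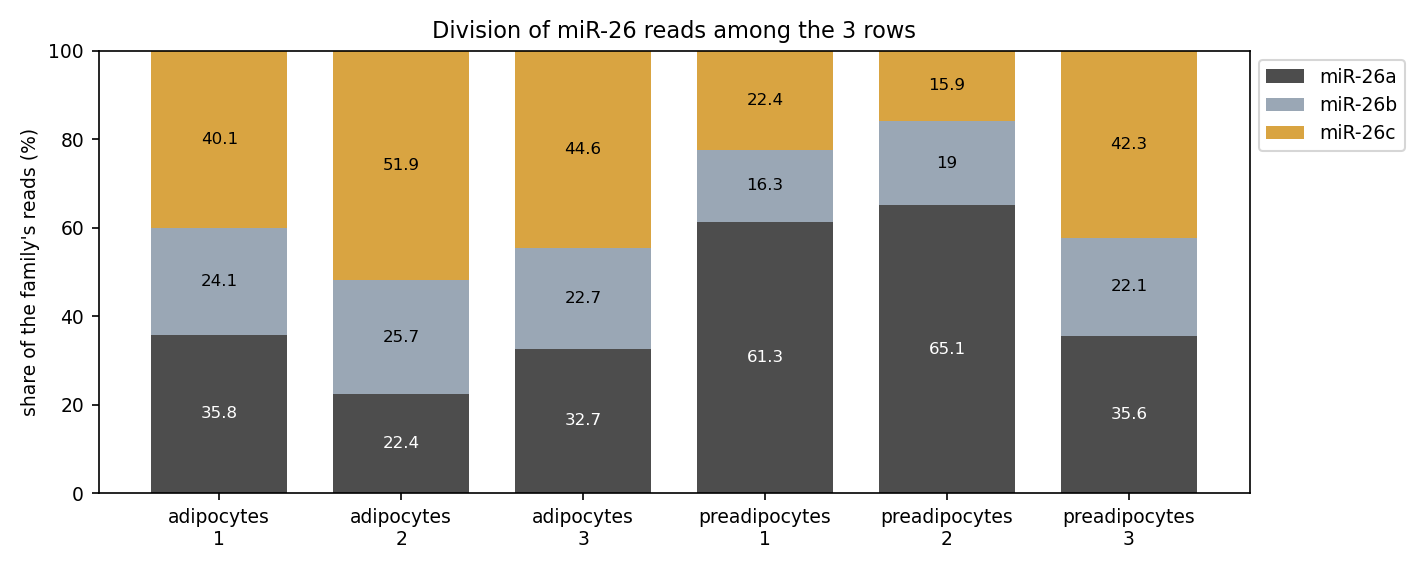
Share of the miR-26 family's reads (vertical axis, percent) that each library assigned to miR-26a, miR-26b and miR-26c, with 1 bar per library. Preadipocyte replicates 1 and 2 gave 61.3% and 65.1% to miR-26a, and preadipocyte replicate 3 gave 35.6%, close to the 22.4% to 35.8% of the adipocyte libraries.

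Ranked by reads among the known miRNAs of each library, miR-26c was number 26, 22 and 21 in adipocyte replicates 1 to 3 and number 50, 58 and 28 in preadipocyte replicates 1 to 3. The rank of miR-26b was 42, 39 and 44 in adipocytes and 55, 52 and 44 in preadipocytes. That of miR-26a was 29, 45 and 30 in adipocytes and 29, 29 and 32 in preadipocytes, so that apart from adipocyte replicate 2 it kept nearly the same rank in every library. Within the family, miR-26c was the most abundant row in all 3 adipocyte libraries and in preadipocyte replicate 3, and miR-26a in preadipocyte replicates 1 and 2.

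A separate row of the table counts reads against the mir-26 precursor family of Rfam, a collection of RNA families. Whether its reads are also among those of the miRNA rows is not stated in these sources. It was counted 20382, 25946 and 22128 times in adipocyte replicates 1 to 3, against 7919, 6169 and 12246 times in preadipocyte replicates 1 to 3. These numbers were close to those of miR-26b, with 0.984 to 1.19 Rfam reads per miR-26b read in adipocytes and 1.02 to 1.39 in preadipocytes. In a fit of all 948 testable rows that name an RNA, the Rfam row had 1106 ± 129 CPM in adipocytes and 486 ± 124 CPM in preadipocytes (SD, n = 3 each). It differed by 1.19 on the log2 scale with an SE of 0.28 (edgeR BH-adjusted p = 0.0668), and 3.48% of the 948 rows passed. Without preadipocyte replicate 3 the Rfam row passed, with 1.46 (edgeR BH-adjusted p = 0.0144), along with 31.5% of all such rows. With DESeq2 it passed with 1.14 (DESeq2 BH-adjusted p = 0.00310), along with 20.6% of all such rows. On this scale, per read of all 948 rows, miR-26a, miR-26b and miR-26c differed by 0.16, 1.23 and 1.58, all again short of the threshold (edgeR BH-adjusted p = 0.747, 0.0808 and 0.114).

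**Figure D4:**
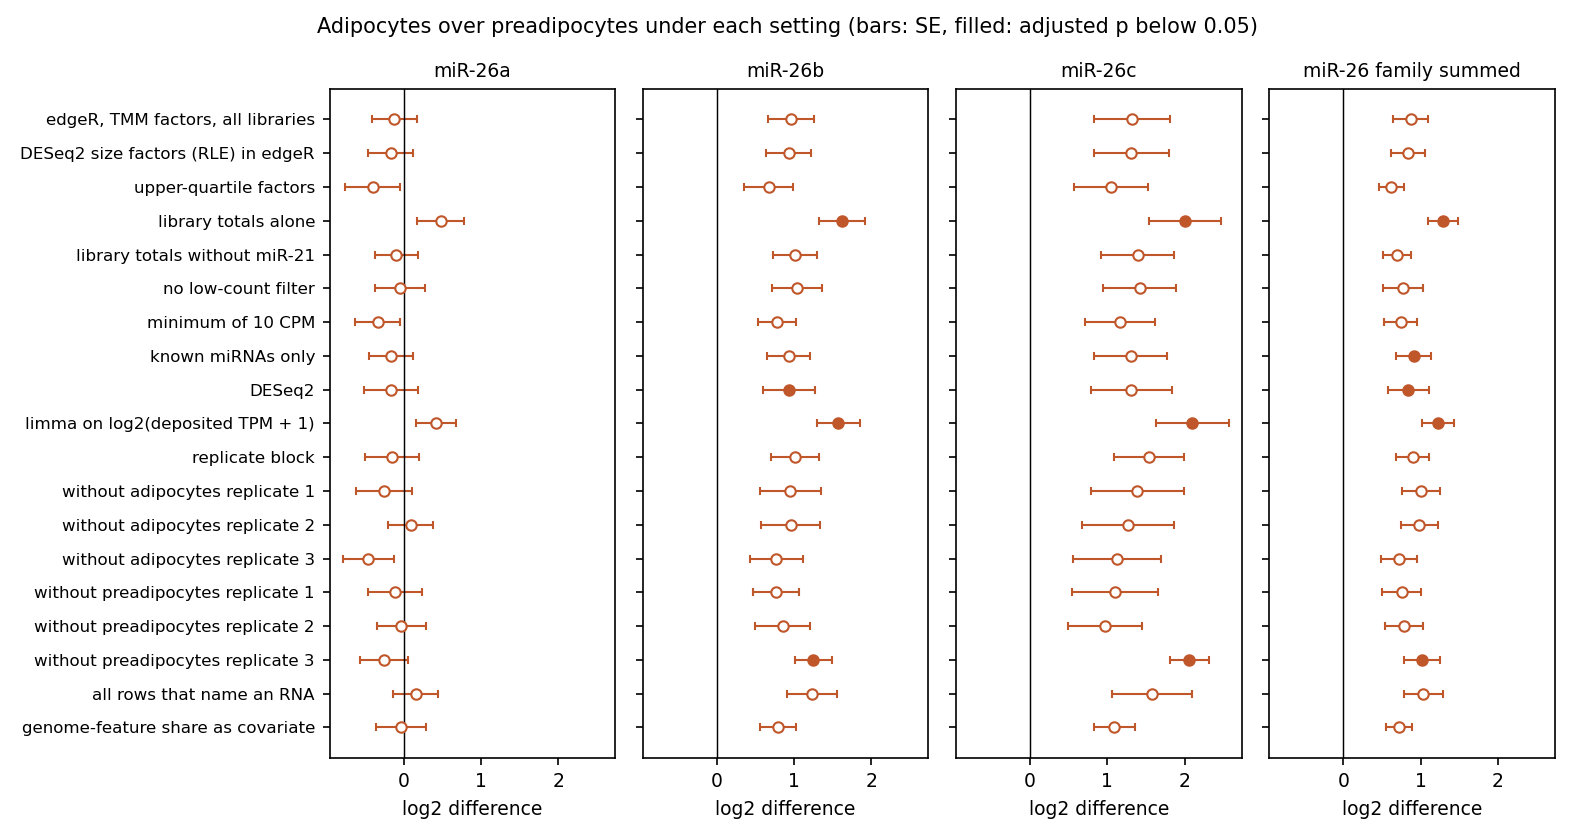
Log2 difference of adipocytes over preadipocytes (horizontal axis) for the 3 members and the family sum, under each setting listed down the side, with bars of 1 SE and filled points where the adjusted p was below 0.05. The points of miR-26b, miR-26c and the sum lie right of zero in every setting shown, and they are filled for all 3 only with library totals alone (23.4% of all miRNA rows and 16.2% of family sums passed), with limma on the deposited TPM (25.6% and 19.6%) and without preadipocyte replicate 3. Points of miR-26a lie on both sides of zero.

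Among 103 other known miRNAs with a mean of at least 100 CPM, those whose log2 level followed a member most closely over the 6 libraries were sought by Pearson's r, as a description only, since the libraries form a pair of groups and share their scaling. The level of miR-26b went with those of miR-99a-5p (r = 0.998), miR-374b (0.955), miR-100 (0.953), let-7c (0.948) and miR-31 (0.947). The nearest to miR-26c were miR-196b (r = 0.995), miR-31 (0.978), miR-374b (0.966), miR-107 (0.939) and miR-99a-5p (0.939). Thus miR-31, miR-374b and miR-99a-5p appeared beside both, and miR-26b and miR-26c had an r of 0.948 with each other. The nearest to miR-26a were let-7i (r = 0.808), miR-221 (0.738), miR-660 (0.735), miR-222 (0.699) and miR-204 (0.685), and its r was -0.39 with miR-26b and -0.52 with miR-26c. For the family sum the nearest were miR-99a-5p (r = 0.976), miR-31 (0.968), miR-100 (0.963), miR-374b (0.942) and miR-196b (0.941). Of all these, miR-100 alone passed the test between the groups (log2 difference 1.29, edgeR BH-adjusted p = 0.0293).

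Other miRNAs with roles like those described for miR-26 were read in the same edgeR fit. Of 29 tested rows of miRNAs described as promoting adipocyte differentiation, 2 rose, 0 fell and 27 did not pass, with a median log2 difference of 0.42. Over all 414 tested rows 6.28% passed in either direction and the median was -0.02, so this list's share of calls lay near that of all rows. The 2 were miR-148a, with 1378 ± 236 CPM in adipocytes against 429.9 ± 129.7 CPM in preadipocytes (log2 difference 1.68, edgeR BH-adjusted p = 0.0309), and miR-199a-3p, with 6757 ± 931 CPM in adipocytes against 16.2 ± 6.83 CPM in preadipocytes (8.70, edgeR BH-adjusted p = 2.62e-04). One of its genes, MIR199A-2, overlaps MIR3604-1 in the RefSeq table, and miR-3604 differed the opposite way, with 28.9 ± 18.9 CPM in adipocytes against 3375 ± 1082 CPM in preadipocytes (-6.87, edgeR BH-adjusted p = 0.0134). The other arm, miR-199a-5p, also in this list, had 4580 ± 795 CPM in adipocytes against 3300 ± 643 CPM in preadipocytes (0.47, edgeR BH-adjusted p = 0.207). Whether the counting divided reads of the overlapping locus between miR-199a-3p and miR-3604 was not tested, so the single value of miR-199a-3p is uncertain. The most abundant of this list, miR-21-5p and miR-143, differed by -0.82 and -0.32 (edgeR BH-adjusted p = 0.0637 and 0.434). Of 25 rows described as restraining differentiation, 1 rose and 0 fell, again near the share of all rows, with a median log2 difference of 0.25. That 1 was miR-33b, from an intron of the sterol regulator SREBF1 (5.67, edgeR BH-adjusted p = 0.0381). It had 37.0 ± 30.1 CPM in adipocytes against 0.717 ± 0.269 CPM in preadipocytes, a level near the floor. Adipocyte replicates 1 to 3 were far apart, at 47.5, 60.4 and 3.12 CPM. Its relative miR-33a differed by 1.74 (edgeR BH-adjusted p = 0.0539), and the abundant let-7i and let-7a-5p by -0.37 and 0.54 (edgeR BH-adjusted p = 0.284 and 0.179).

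Of 8 tested rows of other miRNAs described as repressing EZH2, 0 passed, with a median log2 difference of 0.63 and 6 positive estimates. In this list miR-101 had 37.7 ± 18.1 CPM in adipocytes, against 9.94 ± 5.68 CPM in preadipocytes (SD, n = 3 each, log2 difference 1.92, edgeR BH-adjusted p = 0.0856), and let-7c had 4661 ± 316 CPM in adipocytes, against 2810.2 ± 1260.0 CPM in preadipocytes (0.73, edgeR BH-adjusted p = 0.184). Of 19 tested rows of miRNAs that lie, like miR-26, in introns of protein-coding genes, 1 rose (miR-33b) and 0 fell, with 14 positive estimates and a median of 0.60. The most abundant of them, miR-378 and miR-151-5p, differed by 0.93 and -0.61 (edgeR BH-adjusted p = 0.177 and 0.163). Over all 414 rows 16 rose and 10 fell, and 207 estimates were positive. With each library left out in turn, miR-199a-3p, whose single-row value is uncertain, passed in 6 of 6 fits. The call of miR-33b held in 2 of them, without adipocyte replicate 3 or preadipocyte replicate 3, and those of miR-148a and miR-100 held in 1, without preadipocyte replicate 3.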

How the data were processed

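Small RNA of 3 adipocyte and 3 preadipocyte samples was sequenced, from segments of 18 to 30 nt per the labels' protocols. The submitters' processing notes name Bowtie2. Its version, the genome build, the miRNA release and the rule for multi-mapping reads are not given in the sources used here. Count columns, as deposited, hold whole numbers of reads, not normalized. The deposited TPM columns are reads-per-million (RPM), since each is the count divided by 1 constant per library, with a count of 0 written as 0.001.

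Counts of 879 known and predicted miRNA rows were tested with edgeR 4.0.16 in R 4.3.3 (TMM, filterByExpr, glmQLFit, glmQLFTest, two-sided, no term but the group, Benjamini-Hochberg over all tested rows, threshold 0.05). Standard errors and 95% intervals were derived from the F statistic. Library sizes in that fit, the reads of the tested rows, ran from 14517189 to 22282277. The whole table held 19292757 to 25801117 reads per library, which is 81.1% to 86.4% of the totals that the TPM constants imply. The 4 rows of exon, intron, intergenic and repeat reads, which name no gene, took 5.29% to 18.9% of a library's table and were left out of library sizes and of tests. Families were summed by the name in the table. Ratios within families were fitted with limma 3.58.1 on log2 values with 0.5 added to each count, for rows with at least 10 reads on average. Shares were compared with exact permutation tests in SciPy 1.17.1. Alternatives included DESeq2 1.42.0, limma on log2(TPM + 1), other scalings and filters, a block for the replicate number and each library left out. Named miRNAs were all members, up to 4 per list (by abundance and by p, 2 each) and the 5 nearest by Pearson's r to each member. Any other named was a defining marker, except miR-3604 and miR-199a-5p, which were named beside miR-199a-3p. The edgeR test and the ratio fit were also run on simulated data. Those data had the same spread for all rows, no outlying library and no reads divided between overlapping rows. That run therefore cannot show how the steps behave under these features of the present libraries. The members and lists were chosen with earlier results of these data known.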

Additional observations from a re-analysis of the deposited data

How the results depend on the processing

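Over 18 alternatives each, the log2 difference was positive for miR-26b (0.67 to 1.62), miR-26c (0.97 to 2.10) and the family sum (0.62 to 1.29) in all 18, while miR-26a was positive in 4 (-0.46 to 0.48) and passed in none. The threshold was passed by miR-26b in 4 of the 18, by miR-26c in 3 and by the family sum in 5. With library totals alone the values were 0.48 for miR-26a, 1.62 for miR-26b, 2.01 for miR-26c, 1.29 for the family, 1.20 for miR-26a plus miR-26c and 1.49 for the Rfam row, and with limma on the deposited TPM 0.41, 1.57, 2.10, 1.23 and 1.13 for the first 5. All but miR-26a passed there. With library totals 23.4% of miRNA rows passed (88 higher, 9 lower), as did 16.2% of family sums. In the fit of miR-26a plus miR-26c 23.7% passed, and in that of the Rfam row 6.54%. With limma on the TPM 25.6% of miRNA rows passed (94 higher, 12 lower), 19.6% of family sums and 25.7% in the fit of miR-26a plus miR-26c. The median of all rows moved up in both. With DESeq2, miR-26b (0.93), the family (0.84) and the Rfam row (1.14) passed, and with known miRNAs only the family did (0.91). In the fit with Rfam and piRNA rows, added after seeing the data, miR-26a was 0.16. Leaving out 1 library gave -0.46 to 0.091 for miR-26a, 0.77 to 1.25 for miR-26b, 0.97 to 2.06 for miR-26c, 0.72 to 1.02 for the family, 0.43 to 0.69 for miR-26a plus miR-26c and 1.00 to 1.46 for the Rfam row, and only the fit without preadipocyte replicate 3 brought any of them past the threshold. The share of the family's reads then differed by -32.9 to -18.2 percentage points for miR-26a, 3.64 to 6.55 for miR-26b and 13.2 to 26.4 for miR-26c. With the genome-feature share as a covariate, also added after seeing the data, miR-26c was 1.09 and missed the threshold (edgeR BH-adjusted p = 0.0602).

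The count of 26 miRNAs past the threshold was 49 with upper-quartile factors, 97 with library totals alone, 43 with a minimum of 10 CPM, 59 with known miRNAs only, 97 with DESeq2, 106 with limma on the TPM, and 1 to 148 with 1 library left out. It was 148 without preadipocyte replicate 3 and came to 1 without adipocyte replicate 1, and also 1 without replicate 2 of either group. Leaving out preadipocyte replicate 1 gave 4, and leaving out adipocyte replicate 3 gave 8. The cause was not tested. The replicate numbers are not said to pair libraries: same-numbered libraries deviated from their group means with r of 0.0198, -0.256 and -0.0138, and adipocyte replicate 1 correlated best with preadipocyte replicate 2 (0.209). With the replicate block the count was 1, and the log2 differences were -0.15 for miR-26a, 1.01 for miR-26b, 1.54 for miR-26c and 0.90 for the family, none past the threshold. The log2 ratios to the rest of the family differed by -1.46, 0.44 and 1.28 for miR-26a, miR-26b and miR-26c both with and without the block. Each of these miR-26 rows held at least 4913 reads in every library, and an effect of depth was not tested.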
